A study of Mus musculus with 26 samples.

Results

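The genes described here are 31 mouse genes of the endoplasmic reticulum (ER), of 45318 genes counted by RNA-seq, that encode its stress sensors, chaperones, disulfide enzymes, degradation machinery and translocon. They were listed by symbol for their roles, with earlier results of these data known, and all 31 passed the filter on low counts. Polyadenylated RNA was sequenced from 4T1 cells, a mammary tumor cell line of the BALB/c strain labelled as mammary tumor, grown in DMEM with serum. The groups were 2 libraries of control cells of the genotype labelled wild type, made with a guide RNA against Renilla luciferase, 3 libraries of MaTAR25 KO1 and 4 libraries of MaTAR25 KO2. KO1 and KO2 carry the genotype MaTAR25-/-, and each is 1 single-cell clone in which CRISPR/Cas9 deleted the start of the long non-coding RNA gene MaTAR25, so that an effect of the deletion and a property of a clone cannot be told apart from 1 clone. The paper describes its control cells as single-cell clones too, picked for a MaTAR25 level like that of parental cells. The labels do not name the control clone, and a property of it would appear in both KO clones alike. Nothing in the labels says that libraries of a group came from separate cultures, and p-values then measure the spread between these libraries, which may be technical.

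The ER folds proteins that are secreted or inserted into membranes. When unfolded proteins build up there, the sensors Atf6, Ern1 (IRE1) and Eif2ak3 (PERK) start the unfolded protein response, in which Atf6 and the Xbp1 factor that Ern1 activates raise the transcription of chaperones and degradation genes, while PERK slows translation and raises Atf4 and its targets. Hspa5 (BiP), the main Hsp70 chaperone of the ER, binds the sensors and keeps them inactive, and its RNA is a common readout of the response. Secretory cells, the mammary epithelium among them, hold much of this machinery.

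Many of these genes are known for a shared promoter motif, the ER stress element, written CCAAT, 9 bases of any kind, then CCACG. Of the 31 genes, 25 had a promoter entry of 300 bases from RefSeq (build GRCm38.p6, 250 bases before the gene start and 50 after it), and Atf6, Hyou1, Manf, Derl1, Sec61a1 and Ssr2 had none. The element, searched as an exact match on both strands, stood in the promoters of 9 of the 25 genes, at 10 sites. It stood in 0.171% of the 10504 genes that were tested in the RNA-seq fit and had a promoter entry. Near matches were not counted, so a promoter may hold further sites that differ in a letter. Of the 18 tested genes that held it, 9 belonged to the 31. Since the motif is known from such genes, these shares describe the list and test nothing. These 2 promoters are shown in full because Hspa5 and Hsp90b1, which both hold the element, moved in opposite directions in the KO cells, with the letters of the element in capitals and the sequence on the strand of the gene. A site on the other strand reads CGTGG first and ATTGG last.
Hspa5, chr2:34771840-34772139, plus strand: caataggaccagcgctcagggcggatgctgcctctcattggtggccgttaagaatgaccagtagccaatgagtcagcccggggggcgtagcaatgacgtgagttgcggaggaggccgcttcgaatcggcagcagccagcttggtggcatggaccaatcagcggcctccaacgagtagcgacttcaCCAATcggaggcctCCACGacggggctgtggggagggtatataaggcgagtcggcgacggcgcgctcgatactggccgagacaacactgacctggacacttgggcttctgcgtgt
Hsp90b1, chr10:86705395-86705694, minus strand: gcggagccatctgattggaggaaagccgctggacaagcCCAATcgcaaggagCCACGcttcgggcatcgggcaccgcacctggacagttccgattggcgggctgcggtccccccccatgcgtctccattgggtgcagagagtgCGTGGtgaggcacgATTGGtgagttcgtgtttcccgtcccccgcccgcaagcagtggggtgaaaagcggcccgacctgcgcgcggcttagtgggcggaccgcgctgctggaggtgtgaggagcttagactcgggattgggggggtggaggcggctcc

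The 10 sites, set below each other to show the 9 bases between the fixed letters, lay between 26 and 212 bases before the gene start.
Hspa5: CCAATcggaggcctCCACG
Hsp90b1, far site: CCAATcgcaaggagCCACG
Hsp90b1, near site: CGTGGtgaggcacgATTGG
Dnajc3: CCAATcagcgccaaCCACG
Creld2: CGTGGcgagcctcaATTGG
Calr: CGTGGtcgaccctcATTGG
Canx: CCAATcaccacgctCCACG
Pdia6: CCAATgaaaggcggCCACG
Syvn1: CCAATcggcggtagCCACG
Derl3: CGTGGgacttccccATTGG

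**Figure D1:**
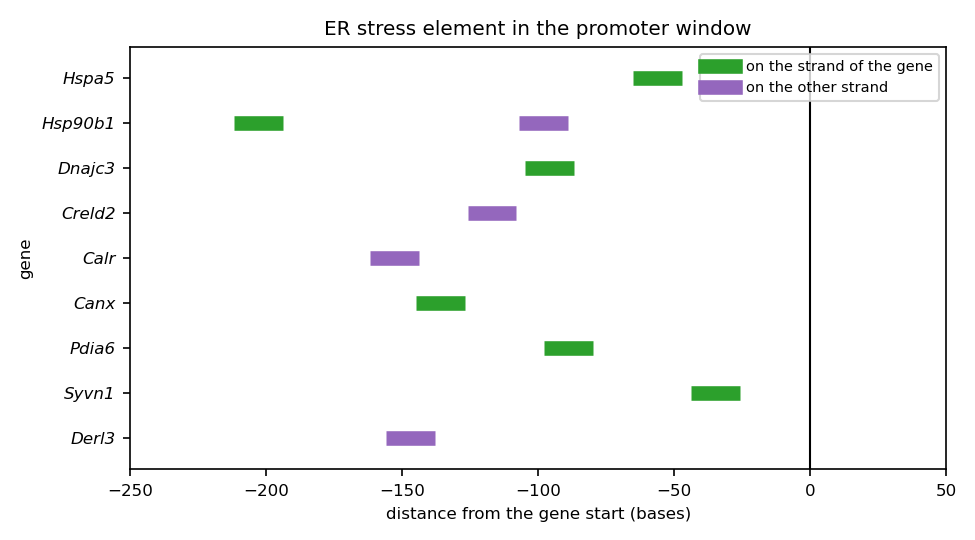
Position of each ER stress element from 250 bases before to 50 bases after the gene start, 1 row for each of the 9 genes and 1 bar for each of the 10 sites, with the bar's color giving the strand. The site of Syvn1 lay closest to the start (26 to 44 bases before it) and the far site of Hsp90b1 farthest from it (194 to 212 bases).

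The last part of the element alone, CCACG on either strand, stood in 21 of the 25 promoters and in 51.4% of the tested genes. TGACGTGG, a motif known to bind Xbp1, stood in 1 of the 25, that of Txndc5, and in 1.02% of the tested genes. A related motif, ER stress element II (ATTGG, 1 base of any kind, then CCACG, chosen after the data had been seen), stood in the promoters of Dnajb11 and Herpud1 and in 0.0857% of the tested genes, and the windows are shown because these genes too moved in opposite directions.
Dnajb11, chr16:22857837-22857877, plus strand, 7 to 17 bases after the start: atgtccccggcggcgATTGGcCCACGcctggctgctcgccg
Herpud1, chr8:94386362-94386402, plus strand, 42 to 52 bases before the start: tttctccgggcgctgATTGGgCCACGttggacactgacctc

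Libraries held 25367211 to 61110585 reads counted on genes. Reads of the targeted gene MaTAR25 (symbol 1200007C13Rik) numbered 35 and 30 in control cells against 2, 7 and 0 for KO1 and 11, 1, 9 and 6 for KO2, so every KO library was lower (log2 fold change -2.63 ± 0.82 (SE), adjusted p = 0.0561 by edgeR's quasi-likelihood test), and its call was lost when either control library was left out. All 8 markers of mammary epithelial cells were found above 1 CPM, counts per 1000000 counts of the library, on average, with a summed level of 5257 and 5431 CPM in control, 6360 to 8233 CPM in KO1, above control, and 2621 to 5171 CPM in KO2, below it. Of these markers Cdh1 alone passed the threshold, lower in KO against control (log2 fold change -0.65, adjusted p = 0.0684). Krt7 and Krt8 went the other way at 1.18 and 0.92, and Cldn4 was at -0.98, none past the threshold (adjusted p = 0.247, 0.16 and 0.25). The part of these shifts in the results was not tested. The markers of plasma cells, a secretory cell type rich in this machinery, were low apart from Sdc1: Jchain, Mzb1, Prdm1 and Irf4 stayed at or below 0.363 CPM in every library, and the summed list lay at 123 to 141 CPM in control and 138 to 218 CPM in KO libraries. Of the 5 fibroblast markers, Dcn and Lum were at 0 in every library, Col1a1 was lower in KO (-3.00, adjusted p = 0.0132) at no more than 3.99 CPM in any library, and the list summed to 20.3 to 25.9 CPM in control and 11.8 to 47.6 CPM in KO libraries. Immune markers summed to 3.20 to 4.24 CPM in control and 1.85 to 28.4 CPM in KO libraries, nearly all of it Cd68, and endothelial markers to at most 1.56 CPM. Counts in the class of alignments to more than 1 place were 24.1% of all counts, those on genes and those set aside, in both control libraries. They were 25.2 to 26.1% in KO1 and 26.3 to 27.5% in KO2, a shift that moved with the groups and whose part in the results was not tested.

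The first comparison asked how the ER genes differed between the 7 KO libraries and the 2 control libraries. Of the 20 chaperones, lectin chaperones, disulfide enzymes and translocon subunits, 10 rose, 9 did not pass the test and Hspa5 fell. Of the 11 sensors and degradation genes, Atf6, Ern1, Herpud1 and Sel1l fell and none rose. These sets join roles that are counted one by one below, and they were formed after the values were seen. Of 20 further degradation genes outside the 31, 3 rose and 3 fell. At an adjusted p below 0.1, 10 of the 31 genes rose and 5 fell, 15 in all (48.4%), against 22.6% of the 15023 genes tested (11.9% higher and 10.7% lower). The median log2 fold change of the 31 genes was 0.37, beside 0.06 over all tested genes. For 18 of the 31 genes (12 higher and 6 lower in KO) every KO library lay on 1 side of both control libraries, as it did for 34.4% of all tested genes (16.9% higher and 17.6% lower). In bulk RNA, fewer cells that express a gene and less RNA per cell cannot be told apart.

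The calls rested on both control libraries. Without control replicate 1, 2 of the 31 genes were called (Ern1 and Herpud1, both lower), beside 2.95% of all tested genes, and without control replicate 2, 3 were called (Dnajb11 and Manf higher, Ern1 lower), beside 3.61%.

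**Figure D2:**
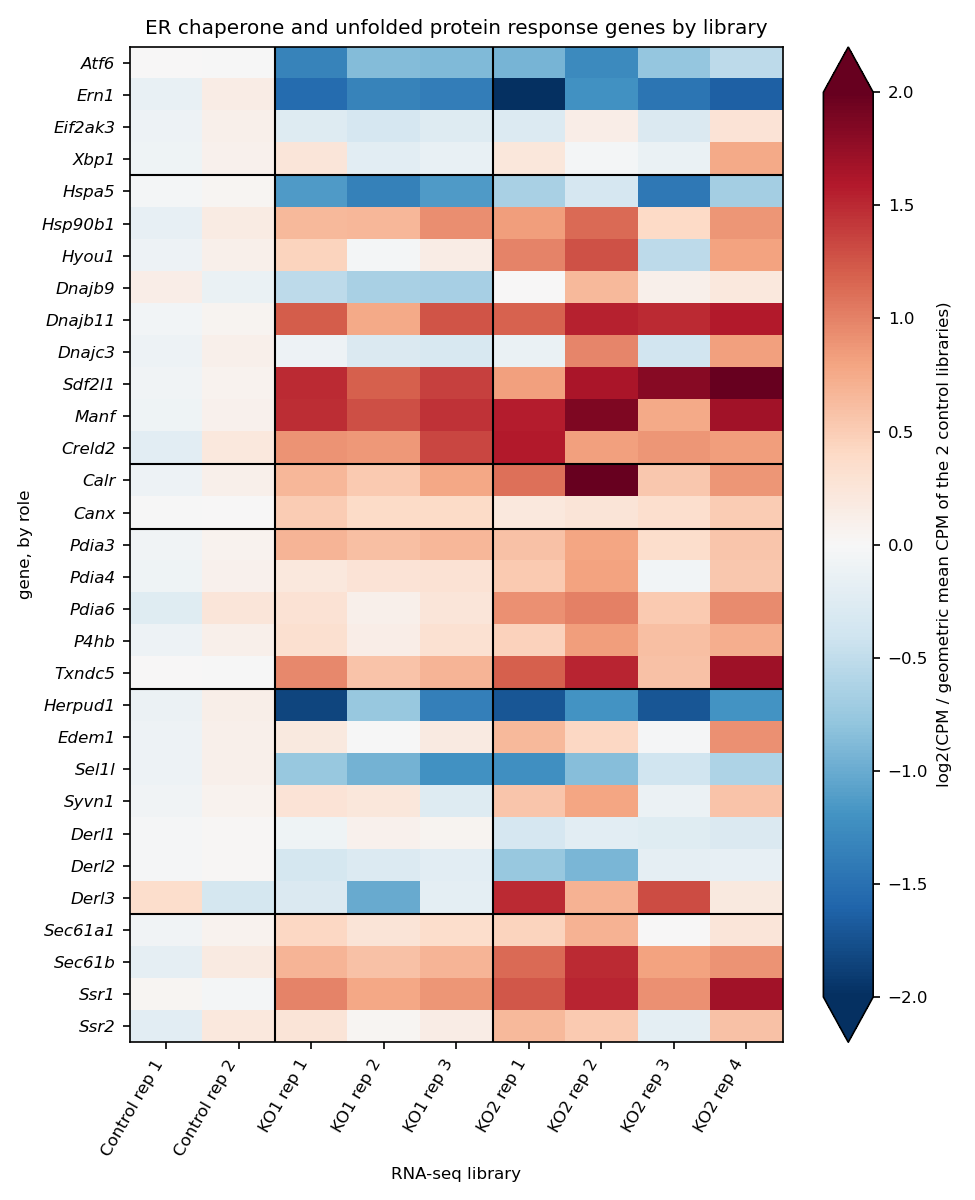
Level of the 31 genes (rows, grouped by role) in each of the 9 libraries (columns), as log2 of CPM over the geometric mean of the control libraries, red above and blue below control and capped at 2 in either direction. Rows of Dnajb11, Sdf2l1, Manf, Creld2 and Ssr1 are red in all 7 KO libraries, while rows of Atf6, Ern1, Hspa5, Herpud1 and Sel1l are blue in all 7.

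Among the sensors and their factors, 2 of 4 genes fell and none rose. Atf6, the membrane-bound factor that is cut free under stress, measured 248 and 244 CPM in the control libraries, 97.9, 135 and 133 CPM in KO1 and 129, 102, 144 and 171 CPM in KO2. Every KO library lay below both controls (log2 fold change -0.92 ± 0.19 (SE), adjusted p = 0.0126). Ern1, the kinase and ribonuclease that splices Xbp1 RNA, measured 247 and 301 CPM in control, 94.3, 108 and 105 CPM in KO1 and 59.5, 118, 98.5 and 88.3 CPM in KO2. The groups were far apart, with a 2.86-fold lower level in KO cells (log2 fold change -1.52 ± 0.21 (SE), adjusted p = 0.00242), and Ern1 was the 1 gene of the 31 that kept its call under each of the 15 alternatives. Eif2ak3, the PERK kinase, ranged from 23.1 to 35.2 CPM in KO libraries around control levels of 27.1 and 31.5 CPM, and its difference was not past the threshold (-0.13 ± 0.21 (SE), adjusted p = 0.717). Xbp1 gave 70.5 and 79.7 CPM in control and 64.8 to 127 CPM in KO libraries (0.13 ± 0.25 (SE), adjusted p = 0.757). Counts per gene do not separate the spliced from the unspliced form of Xbp1, so the activity of Ern1 was not measured here.

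The chaperones and co-chaperones split. Of 9 genes, 5 rose and Hspa5 fell. Hspa5 measured 2841 and 3002 CPM in control, 1329, 1145 and 1325 CPM in KO1 and 1860, 2308, 1086 and 1822 CPM in KO2. All 7 KO libraries lay below both controls, 1.88-fold lower in the fit (log2 fold change -0.91 ± 0.26 (SE), adjusted p = 0.0394). The exact permutation test of the 2 against 7 libraries gave a p of 0.0278 (two-sided), the smallest it can give. Atf6, Ern1, Hsp90b1, Dnajb11 and Manf, also without overlap, gave the same p, which therefore adds little to the lack of overlap. KO2 spread more widely than KO1, with 1769 ± 506 against 1266 ± 105 CPM (mean ± SD, n = 4 and n = 3).

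Hsp90b1 (GRP94), the Hsp90 chaperone of the ER and a classical partner of Hspa5 in the response, went the other way. Its levels were 444 and 559 CPM in control, 784, 788 and 947 CPM in KO1 and 891, 1099, 655 and 917 CPM in KO2, again without overlap (log2 fold change 0.79 ± 0.20 (SE), adjusted p = 0.0247). In counts of the same library, Hspa5 exceeded Hsp90b1 by 6.40 and 5.37 times in control, 1.69, 1.45 and 1.40 times in KO1, and 2.09, 2.10, 1.66 and 1.99 times in KO2. These ratios need no scaling between libraries. They could not overlap between control and KO, since Hspa5 was lower and Hsp90b1 higher in every KO library.

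Co-chaperones that work with Hspa5 were among the genes that rose. Dnajb11 (ERdj3), which hands unfolded proteins to Hspa5, measured 51.1 and 55.5 CPM in control, 124, 90.2 and 128 CPM in KO1 and 121, 154, 149 and 160.3 CPM in KO2 (log2 fold change 1.31 ± 0.23 (SE), adjusted p = 0.00556). No KO library came near the control levels. Sdf2l1, which forms a complex with Dnajb11, had the largest fold change of the 31 genes, from 8.39 and 9.24 CPM to 24.6, 20.3 and 22.6 CPM in KO1 and 15.6, 27.4, 31.3 and 55.2 CPM in KO2 (1.67 ± 0.45 (SE), adjusted p = 0.0319). Manf, a secreted ER stress protein that binds Hspa5, rose from 48.0 and 54.5 CPM to 143, 125 and 139 CPM in KO1 and 153, 186, 86.6 and 164 CPM in KO2 (1.47 ± 0.26 (SE), adjusted p = 0.00696). Exons of Manf overlap those of other genes on both strands in the annotation. In all, 12 of the 31 genes shared exon bases with another gene, 11 of them (Hsp90b1, Manf, Pdia3 and Txndc5 among the called ones) with a gene on the opposite strand, and since the strand setting of the counting is unknown their counts are uncertain to that extent. Creld2, an ER stress-induced disulfide isomerase, rose from 20.3 and 27.3 CPM to 41.4 to 71.0 CPM (1.05 ± 0.26 (SE), adjusted p = 0.0237), and its groups did not overlap.

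The other 3 chaperone genes did not pass the test. Hyou1 (GRP170), which exchanges the nucleotide of Hspa5, spread from 112 to 392 CPM over the KO libraries around 151 and 175 CPM in control (0.55 ± 0.41 (SE), adjusted p = 0.395). Dnajc3 (p58IPK), an inhibitor of PERK, spread likewise from 67.7 to 172 CPM, with 81.6 and 94.8 CPM in control (0.18 ± 0.39 (SE), adjusted p = 0.788). Dnajb9 (ERdj4), which brings Hspa5 to Ern1, had a log2 fold change of -0.06 ± 0.36 (SE), adjusted p = 0.935.

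**Figure D3:**
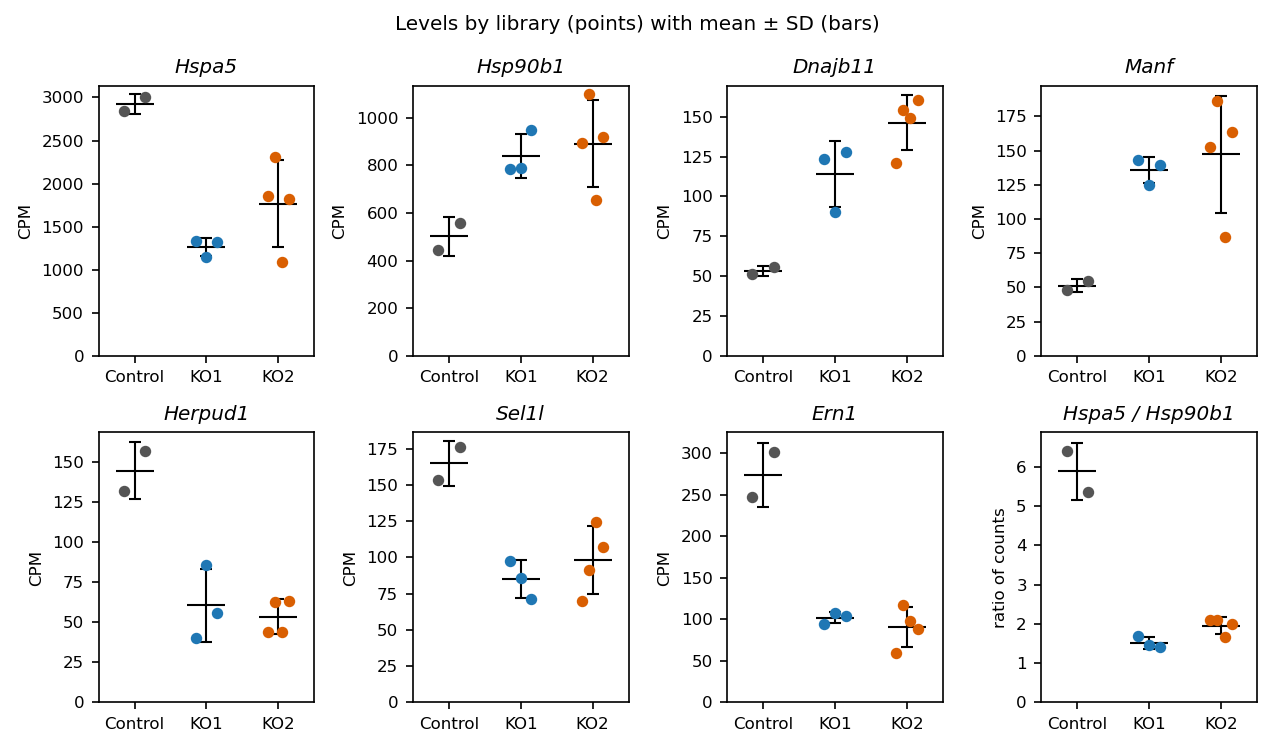
CPM of 7 genes, and the ratio of Hspa5 to Hsp90b1 counts, in each library (points) with the mean ± SD (bars) of control (n = 2), KO1 (n = 3) and KO2 (n = 4), on axes that start at 0. In each of the 8 panels all KO libraries lie on 1 side of both control libraries, which for the ratio follows from the levels of its genes.

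Lectin chaperones hold newly made glycoproteins. Canx, the membrane-bound one, measured 533 and 539 CPM in control and 621 to 761 CPM in KO libraries, a small rise with no overlap (log2 fold change 0.37 ± 0.13 (SE), adjusted p = 0.0778), and its call was lost in 7 of the 15 alternatives. Calr, the soluble one, was higher in every KO library than in control (359 and 415 CPM against 614, 552 and 661 CPM in KO1 and 829.9, 1619, 563 and 710.1 CPM in KO2), but its spread left it outside the threshold (1.04 ± 0.40 (SE), adjusted p = 0.112), with KO2 replicate 2 far above the rest.

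Disulfide enzymes form and rearrange the disulfide bonds of folding proteins, and 2 of these 5 genes rose and none fell. Pdia3 (ERp57), the partner of the lectin chaperones, measured 359 and 399.8 CPM in control and 483 to 658 CPM in KO libraries (0.61 ± 0.14 (SE), adjusted p = 0.019). Txndc5 (ERp46) rose from 149 and 147 CPM to 288, 219 and 236 CPM in KO1 and 338, 424, 222 and 480.4 CPM in KO2 (1.09 ± 0.33 (SE), adjusted p = 0.0502). P4hb, the founding protein disulfide isomerase, Pdia4 and Pdia6 stayed outside the threshold, at 0.50, 0.39 and 0.59 (adjusted p = 0.114, 0.239 and 0.18).

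ER-associated degradation draws misfolded proteins back to the cytosol. Of its 7 genes, 2 fell and none rose. Herpud1, a scaffold of the ligase complex, measured 132 and 157 CPM in control, 40.5, 85.4 and 55.9 CPM in KO1 and 44.1, 62.9, 44.0 and 63.1 CPM in KO2 (log2 fold change -1.35 ± 0.25 (SE), adjusted p = 0.00776). Each KO library lay below both controls, 2.56-fold lower in the fit. Sel1l, the partner of the Syvn1 ligase, fell from 154 and 176 CPM to 97.7, 85.8 and 71.4 CPM in KO1 and 70.1, 91.1, 124 and 107 CPM in KO2 (-0.83 ± 0.21 (SE), adjusted p = 0.0248). Syvn1 (HRD1) itself had a log2 fold change of 0.33 ± 0.27 (SE), adjusted p = 0.433, and Edem1, which trims mannose from glycoproteins bound for degradation, one of 0.36 ± 0.25 (SE), adjusted p = 0.358. Derl1, a derlin that helps move proteins out of the ER, measured 216 and 222 CPM in control and 173 to 233 CPM in KO libraries and did not pass (-0.14 ± 0.15 (SE), adjusted p = 0.569). Derl2, a related derlin, measured 61.1 and 63.4 CPM in control and 32.9 to 55.2 CPM in KO libraries, below control in all 7, and did not pass either (-0.38 ± 0.21 (SE), adjusted p = 0.249). Derl3 was near the limit of detection, with 7 to 51 counts in a library.

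At the translocon, through which new proteins enter the ER, 2 of 4 genes rose and none fell. Ssr1, a subunit of the translocon-associated complex, rose from 107 and 102 CPM to 209, 179 and 193 CPM in KO1 and 247, 301, 198 and 334 CPM in KO2 (1.18 ± 0.26 (SE), adjusted p = 0.0155). Sec61b, a channel subunit, rose from 33.1 and 42.7 CPM to 60.2, 56.7 and 60.3 CPM in KO1 and 82.6, 106, 66.0 and 70.3 CPM in KO2 (0.92 ± 0.26 (SE), adjusted p = 0.0388). Their partners Sec61a1 and Ssr2 stayed outside the threshold, at 0.36 and 0.30 (adjusted p = 0.195 and 0.423).

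Taken as 1 pool of transcripts, the 31 genes held 0.795 and 0.873% of the counts of the control libraries and 0.682 to 1.03% of those of the KO libraries, ranges that overlapped. Hspa5 made up 37.7 and 36.1% of this pool in control but 17.5, 16.5 and 17.4% in KO1 and 21.2, 20.9, 16.0 and 19.4% in KO2. The other 30 genes together summed to 4690 and 5305 CPM in control and 5689 to 8742 CPM in KO libraries. The ratio of Herpud1 to Manf counts was 2.75 and 2.88 in control and 0.283 to 0.683 in the KO libraries. These shares and ratios are descriptions, with no test.

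Per kilobase of exon, Hspa5 had the highest level of the 31 genes in control, 691 ± 27.0 CPM per kb (mean ± SD, n = 2), and kept the first place in KO cells at 367 ± 107 CPM per kb (n = 7). P4hb, Calr, Hsp90b1, Pdia3 and Canx followed in control at 156 ± 14.9, 134 ± 13.8, 124 ± 20.2, 121 ± 9.22 and 114 ± 0.890 CPM per kb, and the spreads of neighbours in this order overlapped. Herpud1 went from place 8 in control to place 20 in KO cells and Ern1 from 13 to 26, while Sdf2l1 went from 27 to 18 and Manf from 24 to 15. Derl3 was last in both at 0.241 and 0.342 CPM per kb.

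The clones were then compared with control one at a time. Both comparisons share the control libraries. In KO1, 10 of the 31 genes rose and 5 fell, against 31.6% of all tested genes called (15.9% higher and 15.7% lower). In KO2, 12 rose and 5 fell, against 31.4% called (16.5% higher and 15.0% lower). Hspa5 had a log2 fold change of -1.21 ± 0.25 (SE), adjusted p = 0.0103 in KO1 and -0.72 ± 0.24 (SE), adjusted p = 0.0562 in KO2. Ern1 gave -1.42 and -1.59, Herpud1 -1.25 and -1.43, Manf 1.41 and 1.52, and Dnajb11 1.10 and 1.46 in KO1 and KO2 in turn, each past the threshold in both. Calr, Pdia6 and P4hb passed in KO2 alone, with log2 fold changes of 1.27, 0.84 and 0.66 there and 0.65, 0.19 and 0.25 in KO1. Canx passed in KO1 alone, at 0.42 against 0.33 in KO2. Without control replicate 1, 7 of the 31 genes passed in KO1 and 5 in KO2, beside 9.46% and 8.72% of all tested genes, and without control replicate 2, 7 and 10, beside 11.1% and 9.15%. The Hspa5 call in KO2 was lost in both cases and in a fit of control and KO2 alone (adjusted p = 0.112).

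**Figure D4:**
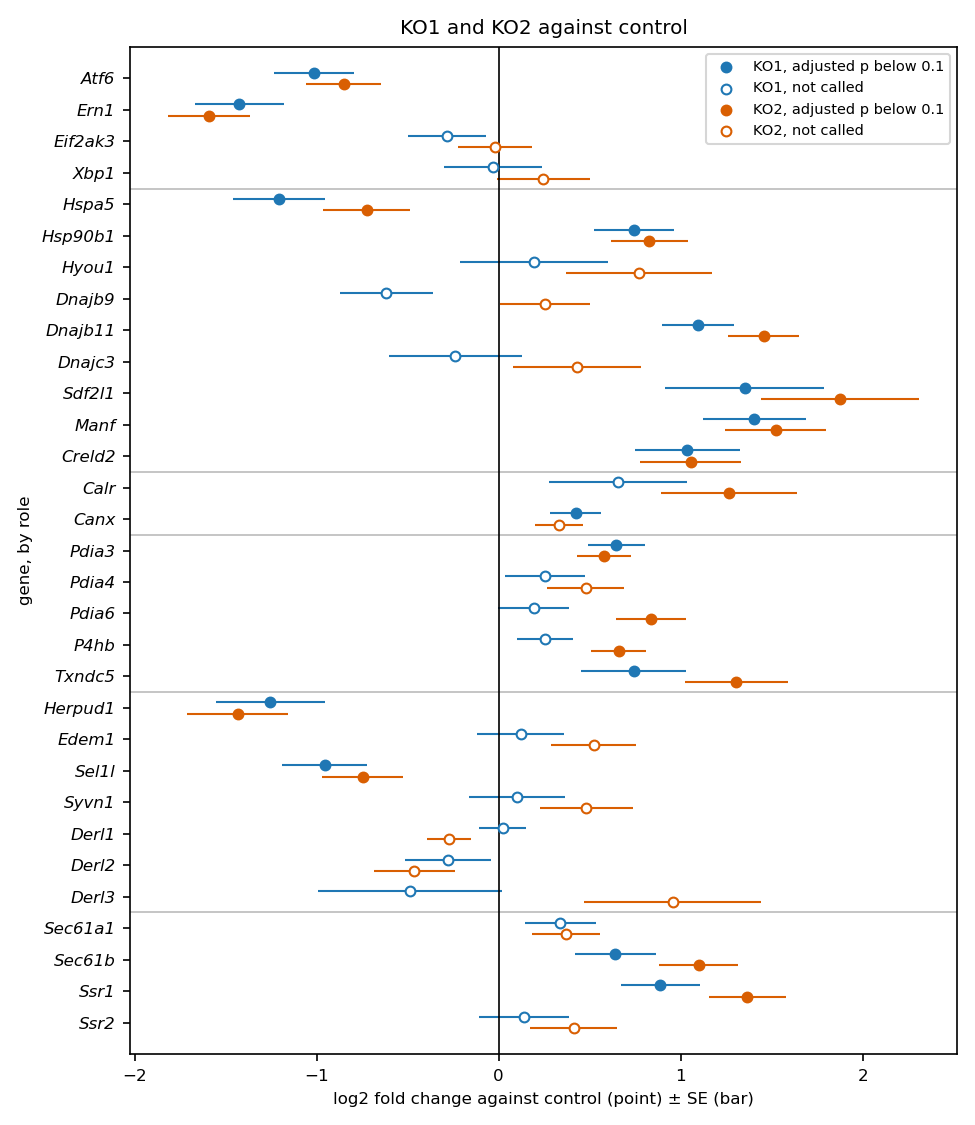
Log2 fold change against control (point) with its standard error (bar) for the 31 genes in KO1 and KO2, filled where the adjusted p was below 0.1. Filled points lie to the left for Atf6, Ern1, Hspa5, Herpud1 and Sel1l in both clones, and to the right for the other genes that passed.

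The difference between the clones, tested in the fit of all 3 groups, passed for 4 of the 31 genes (12.9%), against 19.6% of all tested genes (9.43% higher and 10.2% lower in KO1). All 4 were lower in KO1. Dnajb9 measured 8.22, 7.56 and 7.44 CPM in KO1 and 11.9, 18.5, 12.8 and 13.7 CPM in KO2 (-0.87 ± 0.22 (SE), adjusted p = 0.0358), with no overlap. Pdia6 measured 253, 221 and 245 CPM in KO1 and 389, 416, 295 and 396 CPM in KO2 (-0.64 ± 0.17 (SE), adjusted p = 0.0378). P4hb gave 555, 489 and 547 CPM and 609, 791, 675 and 735 CPM (-0.41 ± 0.13 (SE), adjusted p = 0.073), and Derl3, at low counts, -1.44 ± 0.43 (SE), adjusted p = 0.0599. Calr and Canx, called in 1 clone alone, did not differ past the threshold between the clones (-0.61 ± 0.31 (SE), adjusted p = 0.229 and 0.09 ± 0.12 (SE), adjusted p = 0.633), nor did Hspa5 (-0.48 ± 0.22 (SE), adjusted p = 0.177).

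This comparison depended on single libraries. KO2 replicate 3 was the lowest of the 4 KO2 libraries in 19 of the 31 genes, while it was the lowest in 26.0% of all tested genes. KO2 replicate 2 was the highest in 16 of the 31, beside 28.5% of all tested genes. Without KO2 replicate 3, 16 of the 31 genes differed between the clones (15 lower in KO1), beside 27.5% of all tested genes. Hyou1, Txndc5, Hspa5, Pdia6 and Dnajc3 were then lower in KO1 by log2 fold changes of -0.84, -0.75, -0.66, -0.75 and -0.87. Leaving out a library picked for its low values raises KO2, so this direction follows in part from that choice. Without KO1 replicate 2, by contrast, none of the 31 passed, beside 5.79% of all tested genes.

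A wider list of 110 ER genes was written with earlier results of these data known, and 104 of them were tested. In KO against control, 12 rose and 10 fell, 22 in all (21.2%), with a median log2 fold change of 0.05. That share lay near the 22.6% of all tested genes. By part, 5 of 9 genes of the PERK branch fell, 3 of 32 tested folding factors rose and 1 fell, 2 of 15 glycan genes rose, 3 of 20 other degradation genes rose and 3 fell, 4 of 20 tested genes of signal recognition, translocon and signal peptidase rose, and 1 of 8 tested genes of sensor processing fell.

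In the list written for the PERK branch no gene rose. RNA levels do not measure the activity of PERK, and its part in these changes was not tested. Ddit3 (CHOP), a stress-induced factor that promotes cell death, measured 152 and 233 CPM in control, 25.1, 43.6 and 26.4 CPM in KO1 and 11.4, 24.6, 15.1 and 13.7 CPM in KO2 (log2 fold change -3.08 ± 0.39 (SE), adjusted p = 0.00181). Trib3, a pseudokinase target of Atf4 and Ddit3, fell from 474 and 553 CPM to 60.9, 139 and 61.2 CPM in KO1 and 13.9, 7.92, 14.4 and 8.36 CPM in KO2 (-3.56 ± 0.88 (SE), adjusted p = 0.0236). The other called genes, named after their values were seen, were Atf4 at a log2 fold change of -1.20, Ppp1r15a (GADD34), which undoes the block of translation, at -2.32, and Bbc3 (PUMA), which promotes apoptosis, at -2.12, with adjusted p-values of 0.0491, 0.00371 and 0.00432. Atf4, the central factor of the branch, measured 568 and 582 CPM in control, 238, 446 and 359 CPM in KO1 and 196, 174, 189 and 147 CPM in KO2. The calls of Ddit3, Ppp1r15a and Bbc3 held in all 15 alternatives, while those of Trib3 and Atf4 were lost when either control library was left out (adjusted p up to 0.154 and 0.266 over the alternatives). Eif2s1, the substrate of PERK, did not pass (-0.06 ± 0.22 (SE), adjusted p = 0.882).

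The clones differed in 5 of these 9 genes, beside 19.6% of all tested genes. Trib3 was higher in KO1 than in KO2 by a log2 fold change of 2.96 ± 0.34 (SE), adjusted p = 0.00261, Chac1 by 2.75 ± 0.32 (SE), adjusted p = 0.00261, and Atf4 by 0.98 ± 0.20 (SE), adjusted p = 0.018, each in all 15 alternatives. Ddit3 was higher by 0.97 ± 0.30 (SE), adjusted p = 0.0661, and Ppp1r15a was lower (-0.84 ± 0.29 (SE), adjusted p = 0.0887), calls that were lost in 5 and 9 of the 15. Chac1, which degrades glutathione, measured 139 and 160.4 CPM in control, 71.7, 193 and 99.4 CPM in KO1 and 20.8, 20.3, 18.1 and 12.9 CPM in KO2, so that KO1 overlapped control and KO2 did not. Pooled over the clones, Chac1 did not pass against control (-1.26 ± 0.87 (SE), adjusted p = 0.354).

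**Figure D5:**
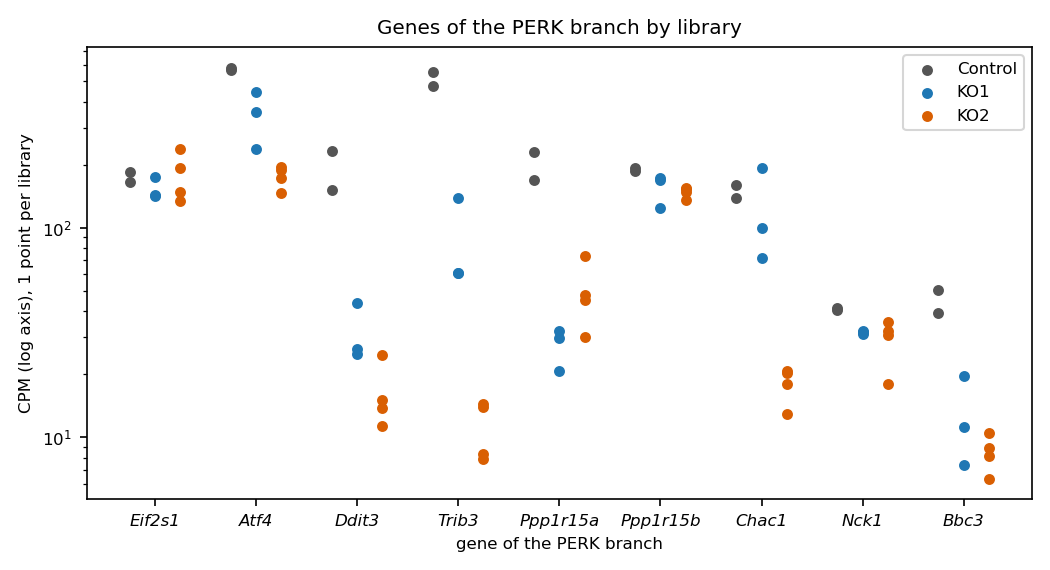
CPM on a log axis of the 9 genes of the PERK branch, with 1 point for each control (n = 2), KO1 (n = 3) and KO2 (n = 4) library. Points of Ddit3, Trib3, Ppp1r15a, Bbc3 and Atf4 lie below control in all 7 KO libraries, and points of Trib3 and Chac1 lie lower in KO2 than in KO1.

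Of the remaining lists, Creb3, a membrane-bound factor related to Atf6, fell (-1.10 ± 0.35 (SE), adjusted p = 0.0609). Among folding factors, Prdx4, an ER peroxidase, rose by a log2 fold change of 1.47 and Hspa13 by 1.02, while the membrane-bound Hspa5 partner Dnajc1 fell (-0.45), with adjusted p-values of 0.0203, 0.0348 and 0.0984. Dad1 and Rpn2, subunits of the enzyme that transfers glycans to proteins, rose by 0.77 and 0.50 (adjusted p = 0.0665 and 0.0461). In degradation, Selenos and Vcp, the ATPase that extracts substrates, rose by 0.96 and 0.87 (adjusted p = 0.0143 and 0.0974). Ngly1, which removes glycans from extracted proteins, and the ubiquitin-conjugating enzyme Ube2g2 had log2 fold changes of -1.32 and -0.63 (adjusted p = 0.019 and 0.0322). Srp19, a protein of the signal recognition particle, and Ssr4, a partner of Ssr1, rose by 0.81 and 0.78 (adjusted p = 0.00911 and 0.0192). All of these calls from Creb3 to Ssr4 were lost when either control library was left out, and those of Dnajc1 and Vcp in 11 and 8 of the 15 alternatives.

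Set against the promoters shown above, an exact match of the ER stress element did not go with 1 direction. Of the 9 genes that hold it, Hsp90b1, Creld2 and Canx rose, Hspa5 fell, and Dnajc3, Calr, Pdia6, Syvn1 and Derl3 did not pass in KO against control. By count, 4 of the 13 called genes with a promoter entry held it, and 5 of the 12 others. Of the genes with ER stress element II, Dnajb11 rose and Herpud1 fell.

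ChIRP-seq uses biotinylated oligos to MaTAR25 to pull down the DNA bound by it. It was deposited as peak lists of pooled replicates, with a score for each peak. The paper called these peaks with the pulldown by oligos to Ppib, a control RNA, as background. The lists were not tested between samples here. In the list of the total oligo pool of 4T1 cells, 17 of the 31 genes (8 of the 15 called in KO against control and 9 of the other 16) were named nearest to at least 1 of the 76806 peaks, against 59.6% of all tested genes. A peak lay inside 16 of the 31 genes, against 51.2%. With a score of at least 100, 7 genes were nearest to a peak, against 26.1%, with the odd-numbered oligos 16, against 52.4%, and in the list of MMTV-Neu-NDL cells, another mouse mammary tumor line, 10, against 58.0%. The shares of the ER genes with a peak lay near those of all genes, and in NDL cells below.

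Single peaks stood high in the lists. The peak over the start of Manf, chr9:106891575-106892337, ranked 154 of 76806 with a score of 776, and a peak there ranked 292 of 70329 in NDL cells, 639 of 61311 with the odd-numbered oligos and 2714 of 64607 with the even-numbered ones. No run of 12 or more bases of the 14 MaTAR25 oligos matched its sequence. A peak inside Ern1, chr11:106407874-106408627, ranked 536 in the total pool, 744 in NDL cells, 190 with the odd-numbered oligos and 1715 with the even-numbered ones, and a peak in an intron of Txndc5, chr13:38512057-38512812, ranked 1753 in the total pool, 971 with the odd-numbered oligos and 6709 with the even-numbered ones, with no Txndc5 peak in the NDL list. These last 2 peaks hold sequence shared with a capture oligo, shown in capitals in 53 and 55 bases of GRCm38 on the plus strand, with the oligo's own sequence.
Ern1, chr11:106408091-106408143: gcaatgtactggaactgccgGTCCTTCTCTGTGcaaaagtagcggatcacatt
MaTAR25 oligo 6: AGTCACAGAGAAGGACGGCG
Txndc5, chr13:38512327-38512381: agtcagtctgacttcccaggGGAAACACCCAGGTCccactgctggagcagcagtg
MaTAR25 oligo 5: GAAAGGAAACACCCAGGTCA

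The match in Ern1 is 13 bases long and on the strand opposite to the oligo, and that in Txndc5 is 15 bases long. Oligo 6 is even-numbered, but the Ern1 peak ranked higher with the odd-numbered oligos (190) than with the even-numbered ones (1715). Oligo 5 is odd-numbered, and the Txndc5 peak also ranked higher with the odd-numbered oligos (971 against 6709). Of the 38 peaks at the 31 genes in the total-pool list, 11 held such a match of at least 12 bases, against 24.2% of all peaks. A match to the oligos to Ppib stood in 0.316% of all peaks. That share cannot serve as a control, because the peaks were called against the Ppib pulldown. The sets also differ in size, with 14 oligos to MaTAR25 and 8 to Ppib. Pulldown by direct binding of an oligo to matching DNA was not tested. Hspa5 was nearest to no peak of the total pool, and with the odd-numbered oligos it was nearest to a peak that ranked 14211. Its values with the even-numbered oligos were not used, because that list held no peak on chromosome 3 and 8877 peaks on chromosome 2, against 4454 with the odd-numbered oligos and 5666 in the total pool.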

How the data were processed

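Polyadenylated RNA of 9 libraries was sequenced. The authors aligned reads with STAR to GRCm38 and counted them per gene with HTSeq on GENCODE vM5, and they deposited raw counts, with the strand setting not given in the sources used here. In the file of KO2 replicate 2 each gene stood 3 times with 1 value, and 1 copy was used. Of 45318 genes, 733 had no symbol. The authors deposited ChIRP-seq peaks of pooled replicates, called with the Ppib pulldown as background, with a HOMER score for each peak, on mm10. Values of the even-oligo list on chromosomes 2 and 3 were not used.

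Counts were fitted with edgeR 4.0.16 in R 4.3.3 (TMM, filterByExpr, quasi-likelihood test, Benjamini-Hochberg over all 15023 genes tested, threshold 0.1, as the study used). KO against control was fitted with 2 groups, the clones with 3. A single gene was also tested by a two-sided exact permutation of log2(CPM + 1). CPM used library sizes scaled by TMM factors. Exon lengths and overlaps came from GENCODE vM21, promoters from RefSeq. Alternatives were DESeq2 1.42.0, other scaling, filters and thresholds, the replicate number as a block, each library left out, other peak settings and other motifs. Searches for ER stress element II and for oligo matches, the ranking of KO2 libraries and the joining of gene roles in the first comparison were chosen after the data were seen. All 31 genes, MaTAR25 and, of each further list, up to 2 called genes that rose most and up to 2 that fell most were named. The members and lists were chosen with earlier results of these data known. Columns of peak scores carry no replicate error.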

Additional observations from a re-analysis of the deposited data

Results flagged for a closer look

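Single libraries stood apart from their group in 6 of 92 groups of values tested, by a gap to the next library that exceeded Dixon's critical share of the group's range. Chance alone flags about 1 in 20 such groups. Calr reached 1619 CPM in KO2 replicate 2, Xbp1 127 CPM and Sdf2l1 55.2 CPM in KO2 replicate 4, and Creb3 44.4 CPM in KO2 replicate 2, each the highest of the 7 KO libraries. Trib3 reached 139 CPM in KO1 replicate 2, again the highest of the 7. Creld2 measured 71.0 CPM in KO2 replicate 1, the highest of the 4 KO2 libraries.

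The clones differed in the fit of all 3 groups. Dnajb9 (log2 fold change of KO1 against KO2 -0.87, adjusted p = 0.0358), Pdia6 (-0.64, adjusted p = 0.0378), P4hb (-0.41, adjusted p = 0.073) and Derl3 (-1.44, adjusted p = 0.0599) were lower in KO1. Trib3 (2.96, adjusted p = 0.00261) and Ddit3 (0.97, adjusted p = 0.0661) were higher in KO1. Each of these calls but that of Trib3 was lost under at least 1 alternative.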

How the results depend on the processing

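The limits are 2 control libraries, 1 clone per deletion, and counts that do not show Xbp1 splicing. Fits with the replicate number as a block gave 1952 genes called in KO against control, 1736 in KO1 against KO2 and, of the 31 genes, 1 in KO1 against KO2 (1 lower). The numbers do not pair the libraries (correlation of deviations -0.196 to 0.0558 over 7 same-numbered pairs, -0.154 to 0.159 over 19 others). With the block, Hspa5 lost its call in KO against control (adjusted p = 0.14) and in KO2 against control (adjusted p = 0.148). The block also turned Xbp1 in KO1 against control (0.017) and Manf in KO1 against KO2 (0.0064). A threshold of 0.05 gave 2235 genes in KO against control and 1643 in KO1 against KO2, with 6 of the 31 higher in KO1 against control and 2 (2 lower) in KO1 against KO2. Fits of the compared groups alone called 7752 genes in KO1 against control and 1932 in KO1 against KO2. DESeq2 put 1 of the 31 genes higher in KO1 than in KO2. A minimum of 10 counts in every library turned Derl1 in KO1 against control (-0.00436). Counts of the 31 genes with a peak (7 at a score of at least 100, 10 in NDL cells) and with a motif (21 for CCACG, 1 for TGACGTGG, 2 for ER stress element II) moved by over 1.5 times. Leaving out 1 library at a time gave, in KO against control, 462 to 3976 genes and 2 to 16 of the 31 called (0 to 11 higher, 1 to 5 lower). The same gave 1482 to 5661 genes and 7 to 17 (2 to 11 higher, 3 to 6 lower) in KO1 against control, 1366 to 5352 and 5 to 24 (3 to 18 higher, 2 to 6 lower) in KO2 against control, and 874 to 4077 and 0 to 16 (0 to 1 higher, 0 to 15 lower) in KO1 against KO2. Leaving out 1 library at a time turned the sign of these log2 fold changes, none of them past the threshold: in KO against control Dnajb9 -0.21 to 0.10, Dnajc3 -0.0087 to 0.30, Xbp1 -0.0041 to 0.23 and Eif2s1 -0.16 to 0.032, in KO1 against control Pdia6 -0.017 to 0.47, Ssr2 -0.039 to 0.37, Xbp1 -0.18 to 0.068 and Derl1 -0.012 to 0.078, in KO2 against control Eif2ak3 -0.13 to 0.10, in KO1 against KO2 Creld2 -0.19 to 0.20, Sec61a1 -0.14 to 0.0901, Herpud1 -0.15 to 0.40, Hsp90b1 -0.21 to 0.027, Manf -0.31 to 0.0104, Pdia3 -0.0056 to 0.14, Ppp1r15b -0.00397 to 0.22 and Nck1 -0.051 to 0.23. The cause of these changes was not tested. Otherwise, the values of the 31 genes in the 4 comparisons were tallied at the threshold of 0.1, without the threshold of 0.05. Under the refits other than leaving out a library, 704 kept their direction and side of the threshold, 12 lost and 21 gained the threshold. With a library left out, 974, 89 and 29 did so.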
